A study of Mus musculus with 2 samples.

Results

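The small leucine-rich proteoglycans (SLRPs) are secreted matrix proteins whose core is built of leucine-rich repeats. Their genes were chosen by name as a set of fibroblast and meningeal matrix proteoglycans, with earlier results of these data known, that of Fmod among them. Of 10 names, 9 matched a row among the 24229 genes of the deposited table: Fmod, Dcn, Lum, Ogn, Bgn, Omd, Prelp, Aspn and Ecm2. Kera was not analysed here. Polyadenylated RNA was sequenced from the suprachiasmatic nucleus (SCN), the hypothalamic seat of the central circadian clock, of wild type C57BL/6 mice labelled as postnatal day 68. After 7 days in constant darkness, 16 mice formed 2 groups of 8, held for 4 weeks on a normal (NT) or short (ST) T-cycle, that is, a light-dark schedule of fixed period. All were then in darkness for 5 days and were sampled at circadian time 4 h, the SCN being cut by hand from 250 µm slices. The labels also give a start age of 5 to 6 weeks, from which these steps would add up to 75 to 82 days, later than the labelled day 68. Each group is represented by 1 library, and how many mice entered it is not given in the sources used here. There is therefore no replicate error, no test was made, and every difference below is between these 2 libraries.

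SLRPs coat collagen fibrils and set how thick the fibrils grow and how they are spaced, and several of them also bind growth factors of the TGF-beta family. They fall into classes by the cysteines before their repeats. Class I, which here comprises Dcn, Bgn, Aspn and Ecm2, includes proteins that carry chondroitin or dermatan sulfate, whereas class II, here Fmod, Lum, Prelp and Omd, includes carriers of keratan sulfate, and Ogn belongs to class III. In brain, fibroblasts of the meninges and of the walls of larger vessels are known sources of several of them.

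The ST library held 19476689 counts and the NT library 24790629. Counts were scaled by size factors of 0.890 and 1.12, and the 14343 genes whose normalised counts averaged 50 or more are called measured. Ratios are ST over NT with an exact 95% interval that covers counting error only, and log2 ratios use a pseudocount of 0.5. An interval in brackets after a log2 ratio, or fold interval, is that of the ratio itself and not of its log2. All 10 listed SCN marker genes were measured, a mark that 14343 genes passed and that does not by itself establish SCN identity. Avp (vasopressin) stood at 656 RPKM (reads per kilobase of gene, scaled to the library's total) in ST and 563 in NT. Vip (vasoactive intestinal peptide) stood at 168 and 197 RPKM. Their ratios differed in direction, 1.16 (1.12 to 1.19) for Avp and 0.849 (0.818 to 0.880) for Vip. Estimated counts of Avp were not whole, so it is said to share reads, which makes its value less certain. Of the 10 intervals 5 held 1, as did 11758 of the 14343 over all measured genes.

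The 9 genes lie at 4 places in the mouse genome, build mm9. Prelp (chr1:135806881-135817991, minus strand) and Fmod (chr1:135934092-135944839, plus strand) are neighbours. Dcn (chr10:96942245-96980777) and Lum (chr10:97028437-97035337) lie together on chromosome 10. Ecm2 (chr13:49600179-49628158), Aspn (chr13:49639856-49662926), Omd (chr13:49678116-49687978) and Ogn (chr13:49704475-49719869) form a cluster on chromosome 13. Bgn (chrX:70728941-70741272) stands alone. All but Prelp are on the plus strand, and all 9 are annotated as protein-coding.

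The upstream sequences of 4 members are shown because their ratios carry the contrasts below: Fmod and its neighbour Prelp, which differ in their ratio, and Ogn and Bgn, which were lower in ST from other chromosomes. Each is the stretch of 250 bases before the RefSeq start on the gene's own strand, 5′ to 3′, taken from build GRCm38.p6, at chr1:134037004-134037253 (plus) for Fmod, chr1:133921402-133921651 (minus) for Prelp, chr13:49607765-49608014 (plus) for Ogn and chrX:73483351-73483600 (plus) for Bgn. Capitals mark matches on either strand to the TATA box, searched as TATAAA, to the AP-1 site, searched as TGANTCA, to the GC box, searched as GGGCGG, or to the CAAT box, searched as CCAAT; adjoining or overlapping matches run together.
Fmod: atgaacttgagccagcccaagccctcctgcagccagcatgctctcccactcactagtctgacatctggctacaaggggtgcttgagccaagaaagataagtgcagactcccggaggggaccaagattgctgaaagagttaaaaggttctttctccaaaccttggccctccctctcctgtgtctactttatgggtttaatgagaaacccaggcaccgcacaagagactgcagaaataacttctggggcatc
Prelp: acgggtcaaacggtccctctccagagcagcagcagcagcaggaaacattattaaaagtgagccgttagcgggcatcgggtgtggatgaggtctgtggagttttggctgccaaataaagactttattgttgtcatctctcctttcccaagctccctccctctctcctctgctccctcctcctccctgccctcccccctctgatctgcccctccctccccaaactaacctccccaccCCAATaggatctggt
Ogn: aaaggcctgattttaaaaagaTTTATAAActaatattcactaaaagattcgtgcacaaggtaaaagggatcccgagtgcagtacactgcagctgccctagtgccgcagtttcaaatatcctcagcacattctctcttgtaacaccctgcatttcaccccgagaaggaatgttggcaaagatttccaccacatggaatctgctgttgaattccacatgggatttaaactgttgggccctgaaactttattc
Bgn: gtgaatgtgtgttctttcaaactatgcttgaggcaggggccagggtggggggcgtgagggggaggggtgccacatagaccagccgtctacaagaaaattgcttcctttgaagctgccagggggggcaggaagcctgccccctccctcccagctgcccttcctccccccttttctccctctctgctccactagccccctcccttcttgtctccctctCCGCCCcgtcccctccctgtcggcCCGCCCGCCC
The Fmod window held 0 matches to these motifs and 2 CpG dinucleotides, the sites of DNA methylation. The Prelp window held 1 CAAT box and 5 CpGs, the Ogn window 2 overlapping TATA box matches far upstream of the start and 4 CpGs, and the Bgn window 3 GC boxes and 7 CpGs. RefSeq windows matched 8 of the 10 names. Over 32851 RefSeq windows of this length, 12.4% held a TATA box, 6.75% an AP-1 site, 32.7% a GC box and 33.8% a CAAT box, and the median number of CpGs was 6 (quartiles 2 and 16). All 4 windows thus lay within the quartiles of CpG number. A match describes letters only, and methylation was not measured in these libraries.

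Per unit length, Prelp was the most abundant of the 9 members. Prelp, a basic proteoglycan that ties basement membranes to connective tissue, stood at 21.7 RPKM in NT and 21.0 RPKM in ST. Among the members in the NT library it was followed by Dcn (6.51 RPKM), Fmod (4.83), Bgn (3.77), Ecm2 (2.61), Ogn (1.66), Lum (1.09), Aspn (0.492) and Omd (0.115). Of neighbours in this NT order, only Ogn and Lum had counting intervals that overlapped. In the ST library the order was Prelp, Dcn (4.17 RPKM), Bgn (2.30), Ecm2 (2.22), Fmod (1.45), Ogn (0.682), Lum (0.580) and Aspn (0.367), with Omd below 1 read. Here the intervals of Bgn and Ecm2, of Ogn and Lum, and of Lum and Aspn overlapped. Fmod thus ranked 3 in NT and 5 in ST, while the others kept their order among themselves.

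**Figure D1:**
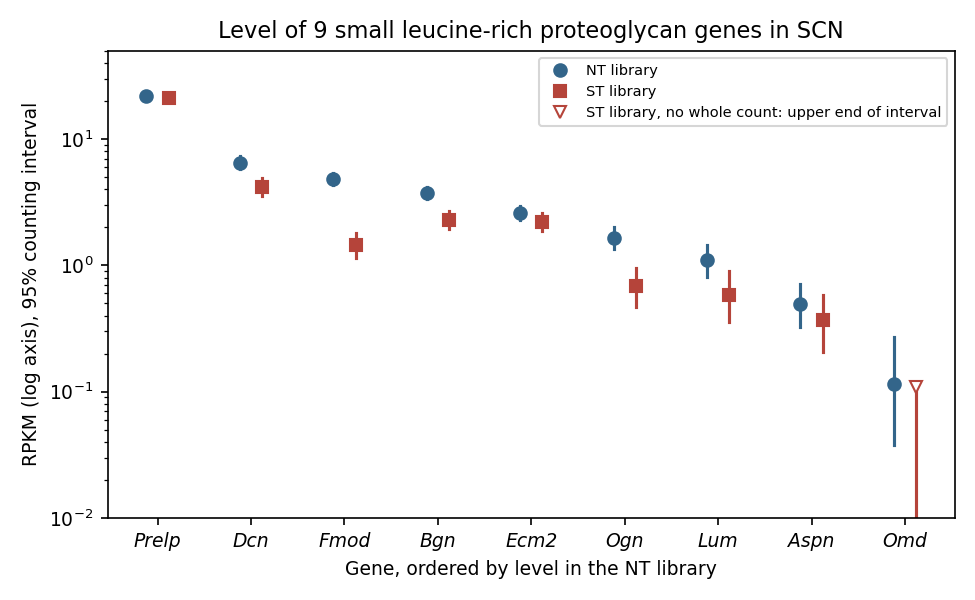
Level of each of the 9 SLRP genes in RPKM (vertical axis, log scale) in the NT library (blue circles) and the ST library (red squares), with bars for the 95% counting interval of each single library. Prelp is level at 21.7 and 21.0 RPKM, Fmod goes from 4.83 in NT to 1.45 in ST, and the open triangle is the upper end of the interval of Omd in ST.

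Fmod, or fibromodulin, binds fibrillar collagen and carries keratan sulfate. It had 340 counts in NT and 80 in ST, or 303 and 89.9 normalised counts. It was 3.37-fold lower in ST (interval 2.63 to 4.35), and only 5 of the 14343 measured genes had a lower log2 ratio. Ogn, osteoglycin or mimecan, had 102 counts in NT and 33 in ST and was 2.45-fold lower (1.64 to 3.74). These are the 2 members of 6 measured that passed a 2-fold difference, a mark that 0.23% of all measured genes passed downwards. Lum, or lumican, which regulates collagen fibrils in cornea and skin, had 48 counts in NT and 20 in ST, too few for the count filter, and was 1.90-fold lower with a wide interval of 1.11 to 3.38.

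The 2 best known class I members were lower by a similar factor. Bgn, or biglycan, had 332 counts in NT and 159 in ST, 1.65-fold lower (1.37 to 2.01). Dcn, or decorin, which binds both collagen and TGF-beta, had 282 counts in NT and 142 in ST, 1.57-fold lower (1.28 to 1.94). With Fmod and Ogn, 4 of the 6 measured members were at least 1.5-fold lower, as were 0.865% of all measured genes. The same 4 had a whole interval below 1, as did 10.2% of all measured genes. Since the set was chosen with these ratios known, the counts are a description.

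Ecm2, a matrix protein related to the SLRPs by its repeats, had 232 counts in NT and 155 in ST, a ratio of 0.843 with an interval that held 1 (0.684 to 1.04). Prelp had 1947 counts in NT and 1479 in ST, a ratio of 0.959 (0.895 to 1.03). Prelp had the deepest count of the set and the narrowest interval. Aspn, or asporin, had 28 counts in NT and 16.4 estimated counts in ST, rounded to 16 for its ratio of 0.721 (0.364 to 1.38). Omd, or osteomodulin, a proteoglycan of bone, had 5 counts in NT and no whole count in ST, with an interval that reached 1.38. No difference was detectable at this depth for Ecm2, Aspn, Omd or Prelp. In the whole set of 9, all ratios were under 1, and 5 intervals lay below 1 while 4 held 1. Among the 14343 measured genes, 7295 had a log2 ratio below 0 and 10.2% an interval below 1. Those shares do not cover genes under the count filter, as Lum, Aspn and Omd were.

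**Figure D2:**
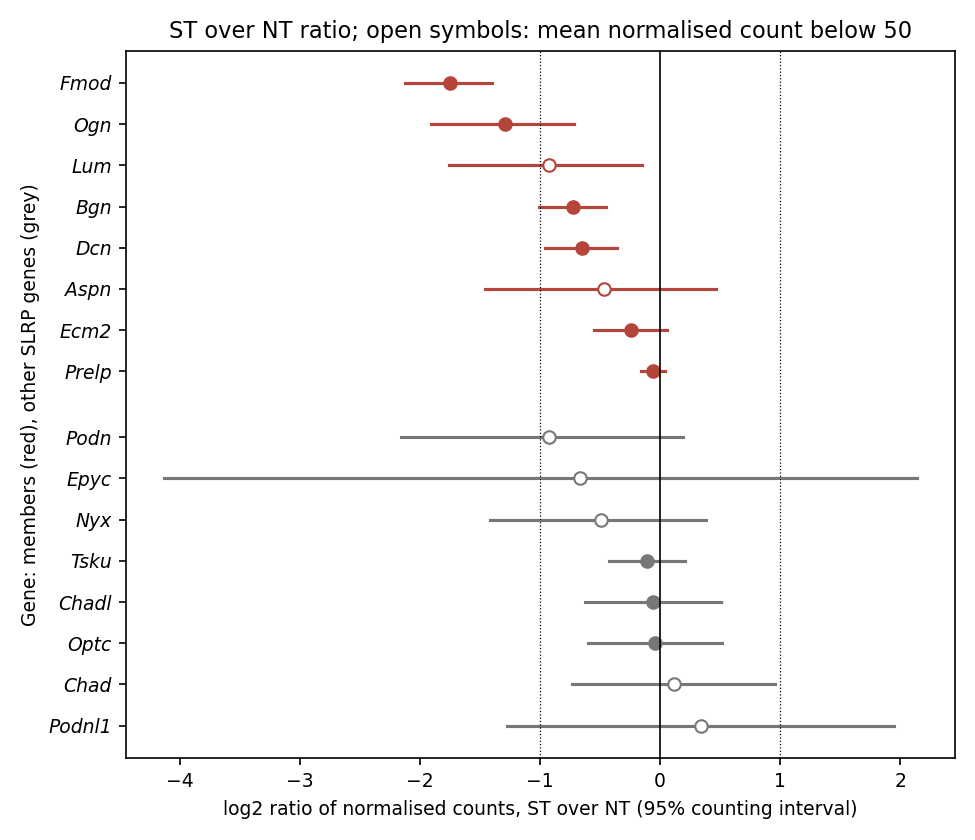
Log2 ratio of normalised counts, ST over NT (horizontal axis), with its 95% counting interval, for the members (red) and for other SLRP genes (grey), one gene per row; open symbols mark genes with a mean normalised count below 50, dotted lines a 2-fold difference, and Omd is left out because it had no whole count in ST. Fmod and Ogn lie past the 2-fold line on the lower side, and Prelp lies at 0.959 on the linear scale with the narrowest interval.

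Some members differed from one another in how far they were lower. Among 36 pairs, 11 had an exact interval for the ratio of their ratios that excluded 1, with no adjustment for the number of pairs. The share among pairs of other genes was not computed, so this count is a description. All 8 pairs with Omd, which had no whole count in ST, had an interval that held 1. The ratio of Fmod lay below those of Prelp (by 3.23-fold, interval 2.50 to 4.21), Ecm2 (2.84-fold, 2.04 to 3.95), Aspn (2.42-fold, 1.17 to 4.90), Dcn (2.14-fold, 1.54 to 2.98) and Bgn (2.03-fold, 1.48 to 2.81). Its difference from Ogn was 1.37-fold, with an interval of 0.836 to 2.23 that held 1. Prelp was likewise set apart from Ogn, Lum, Bgn and Dcn, and Ecm2 from Ogn and Bgn. Bgn and Dcn could not be told apart, their ratios differing by 1.05-fold (0.790 to 1.40).

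Because Prelp makes up most of the SLRP counts, the summed counts hide much of this. The 9 genes together held 3316 counts in NT and 2084 in ST, 1.26-fold lower (1.19 to 1.33). Without Prelp the sum was 1.79-fold lower (1.63 to 1.98), and without both Prelp and Fmod 1.55-fold lower (1.40 to 1.73). Prelp took 58.7% of SLRP counts in NT (exact Clopper-Pearson interval 57.0 to 60.4) and 71.0% in ST (69.0 to 72.9). Fmod took 10.3% in NT (9.24 to 11.3) and 3.84% in ST (3.06 to 4.76). The median log2 ratio of the 6 measured members was -0.69, beside -0.00 over all measured genes.

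**Figure D3:**
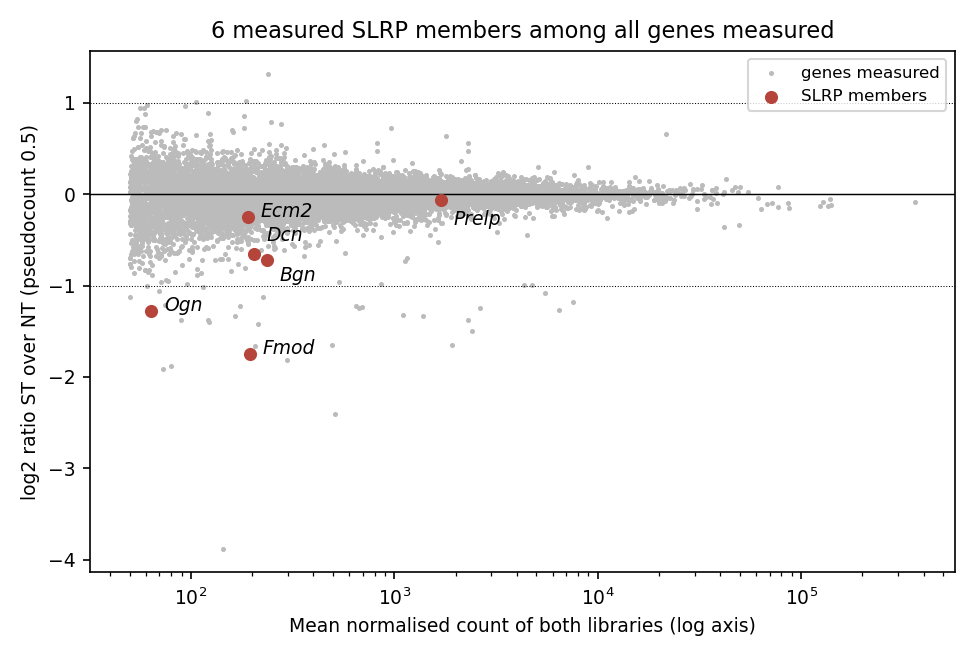
Each grey point is 1 of the 14343 measured genes, with its mean normalised count over both libraries (horizontal log axis) and its log2 ratio ST over NT (vertical axis); red points are the 6 measured SLRP members and dotted lines mark a 2-fold difference. Fmod and Ogn sit below the lower line, Dcn and Bgn at the lower edge of the cloud, and Prelp and Ecm2 inside it.

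Only Fmod passes an adjusted p of 0.05 by the authors' deposited table. Adjusted p-values in the authors' deposited table were 1.39e-14 for Fmod, 0.0955 for Ogn, 0.183 for Bgn, 0.644 for Dcn and 1 for the other 5 members. These p-values rest on 1 library per group and hold no biological replicate error.

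The measured genes nearest to the SLRP loci gave little difference, but some of them lie far away. From the centre of the 93.1 kb Dcn and Lum locus, Btg1, the nearest, lay at -908 kb, Atp2b1 at 1443 kb and Nudt4 at -1970 kb. These genes do not describe the close surroundings of Dcn and Lum. Fbxw17 lay at 861 kb from the centre of the chromosome 13 locus. On each side of each locus the 3 nearest measured genes were taken, 24 in all, and their log2 ratios ran from -0.16 for Nudt4, a diphosphoinositol phosphatase, to 0.25 for Btg2, an antiproliferative early response gene 3′ of Fmod. None was 1.5-fold lower or higher (0.865% and 0.314% of all measured genes were), and the median was -0.01. Of their intervals 17 held 1, 5 lay below it and 2 above it, beside 10.2% below and 7.79% above over all measured genes. Fmod at -1.75 thus lies between Prelp at -0.06 and Btg2 at 0.25. Optc (opticin), the SLRP gene on the other side of Prelp, was at -0.04 with 65 counts in NT and 50 in ST. The nearest measured genes of 3 of the 4 loci include one that encodes a plasma membrane calcium pump, Atp2b4 beyond Optc (-0.05), Atp2b1 beyond Lum (-0.12) and Atp2b3 next to Bgn (-0.03). Nudt4 and the 3 pump genes were named after their values had been seen.

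**Figure D4:**
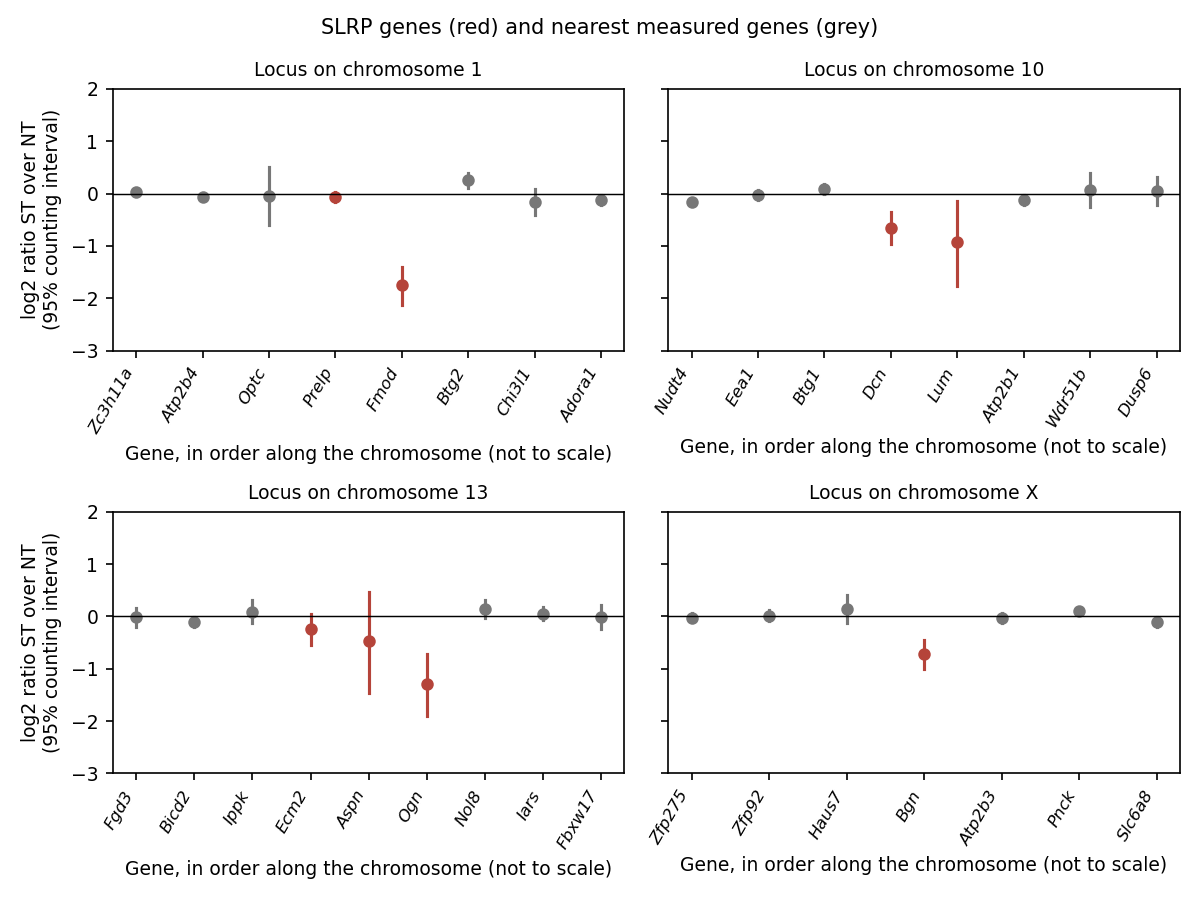
Log2 ratio ST over NT with 95% counting intervals (vertical axis) for SLRP genes (red) and the 3 nearest measured genes on each side (grey), in chromosomal order and not to scale, one panel per locus; Omd is left out. Red points at all 4 loci lie lower than their grey neighbours except Prelp, which is level with them. On chromosome 10 the nearest grey gene, Btg1, lies at -908 kb from the locus centre.

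The 4 genes on chromosome 13 all lie inside the span of Cenpp, a centromere protein gene on the opposite strand, and 0 of their annotated exons overlap an exon of Cenpp. Ecm2 and Ogn had whole counts. Aspn and Cenpp had 16.4 and 25.6 estimated counts in ST, which sum to 42.0, so reads were divided between them and the value of Aspn is uncertain. Omd also had a fractional estimated count in ST, 0.000539, and whether it shares reads with Cenpp was not examined. The other 7 members had whole counts in both libraries.

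Other genes of the SLRP family gave no clear difference. All 8 listed were in the table and 3 were measured: Tsku, or tsukushi, a signalling modulator of class IV, at a log2 ratio of -0.11 (fold interval 0.743 to 1.16), Chadl at -0.06 (0.646 to 1.42), whose level of 7.39 RPKM in NT and 7.16 in ST stood beside 6.51 and 4.17 for Dcn, and Optc at -0.04 (0.658 to 1.43). The other 5 had few counts and intervals that held 1: Podn, or podocan, with 24 counts in NT and 10 in ST, Nyx with 32 and 18, Chad (chondroadherin) with 28 and 24, Podnl1 with 8 and 8, and Epyc, or epiphycan, with 4 and 2.

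The collagens that SLRPs bind were lower as well. Of 10 measured fibrillar and associated collagens, 7 had an interval below 1 and 0 an interval above it, beside 10.2% and 7.79% of all measured genes. In this list 6 were at least 1.5-fold lower and 1 was 2-fold lower, beside 0.865% and 0.23% of all measured genes. The list median was -0.65. Col1a1, the main chain of type I collagen, was at -1.22 (275 counts in NT, 93 in ST), Col3a1 at -0.94 (112 and 46), Col6a1 at -0.84 (86 and 38), which shares reads, Col6a2 at -0.73 (159 and 76) and Col1a2 at -0.65 (788 and 398). Not all collagens went this way, since Col11a1 was at -0.10, Col12a1 at 0.11 and Col5a3, which shares reads, at 0.20, each with an interval that held 1; these last 3 were named after their values had been seen.

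Set against the summed counts of Col1a1, Col1a2 and Col3a1, 1175 in NT and 537 in ST, the members fell into 3 kinds. Col1a2 makes up most of this sum, with 788 counts in NT and 398 in ST. Its own ratio was 0.637 (0.564 to 0.720), whereas that of Col1a1 was 0.427 (0.334 to 0.542). The kinds therefore hold for this sum only, and single collagens were not tried as the reference. Fmod stood at 28.9 counts per 100 collagen counts in NT and 14.9 in ST, a ratio of 0.515 (0.390 to 0.674), lower than the sum. Dcn, at 24.0 and 26.4 per 100 (ratio 1.10, interval 0.872 to 1.39), and Bgn, at 28.3 and 29.6 (1.05, 0.839 to 1.31), followed the sum within counting error. The intervals of Ogn (0.457 to 1.07), Lum (0.507 to 1.58), Aspn and Omd also held 1. Prelp, at 166 and 275 per 100 (1.66, 1.47 to 1.88), and Ecm2, at 19.7 and 28.9 (1.46, 1.16 to 1.85), were higher relative to the sum.

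Genes that process and crosslink collagen were not lower as a group. Of 15 measured, 2 had an interval below 1 and 2 above it, beside 10.2% and 7.79% of all measured genes, and the median was -0.01. Pcolce, which enhances procollagen cleavage, was at -0.85 (121 counts in NT, 53 in ST) and Crtap at -0.37, both of which share reads. Adamts2, a procollagen protease, was at 0.40 (266 and 278), the prolyl hydroxylase subunit P4ha3 at 0.30, and the collagen chaperone Serpinh1, the highest of the list by RPKM, at -0.09.

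Enzymes that build the sugar chains differed little. Of 20 measured genes of chondroitin and dermatan sulfate synthesis, 18 had an interval that held 1, as did 11758 of the 14343 measured genes. In this list 1 interval lay below 1 and 1 above it, and the median was -0.03. Ust, a uronyl sulfotransferase, was at -0.23 (fold interval 0.761 to 0.954), the dermatan sulfotransferase Chst14 at -0.26 (0.560 to 1.24) and the linker galactosyltransferase B3galt6 at 0.17 (0.994 to 1.27). Of 10 measured genes of keratan sulfate synthesis, 3 had an interval below 1 and 1 above it, with a median of -0.10. Over all measured genes, 10.2% had an interval below 1 and 7.79% above it. B4galt1 was at -0.30 (0.666 to 0.987), the fucosyltransferase Fut8, which shares reads, at -0.23 (0.790 to 0.920), and the keratan sulfotransferase Chst1 at 0.08 (1.01 to 1.10).

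Ligands and receptors of the TGF-beta and BMP families, to which several SLRPs bind, were listed together with latent TGF-beta binding proteins, of which Ltbp1, Ltbp3 and Ltbp4 were measured. The median log2 ratio of this list was -0.18. Of 17 measured, 11 had an interval that held 1, 6 an interval below 1 and 0 an interval above it. Over all measured genes, 10.2% had an interval below 1 and 7.79% above it. A log2 ratio below 0 was found for 16 of them, as for 7295 of the 14343 measured genes. Bmp6, which shares reads, was at -0.46 (fold interval 0.548 to 0.960), Bmp7 at -0.34 (0.656 to 0.948), the endothelial receptor gene Acvrl1, which shares reads, at -0.28 (0.688 to 0.982) and Tgfb1 at -0.42 (0.512 to 1.08). Among 11 measured receptors known to bind SLRPs, 2 had an interval below 1 and 3 above it, beside the same shares of all measured genes. Tlr2, an innate immune receptor for biglycan, was at -0.55 (fold interval 0.489 to 0.946), Met, a receptor for decorin, at -0.48 (0.558 to 0.913), and the endocytic receptor Lrp1, which shares reads, at 0.13 (1.07 to 1.12). Of 22 other proteoglycan core proteins measured, 14 had an interval that held 1, 5 an interval below 1 and 3 above it. Over all measured genes, 11758 of 14343 intervals held 1, 10.2% lay below it and 7.79% above. The median of this list was -0.04, with Spock2, the highest by RPKM, at 0.05, Cspg4 at -0.23 and Srgn at -0.33 (0.593 to 1.05).

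**Figure D5:**
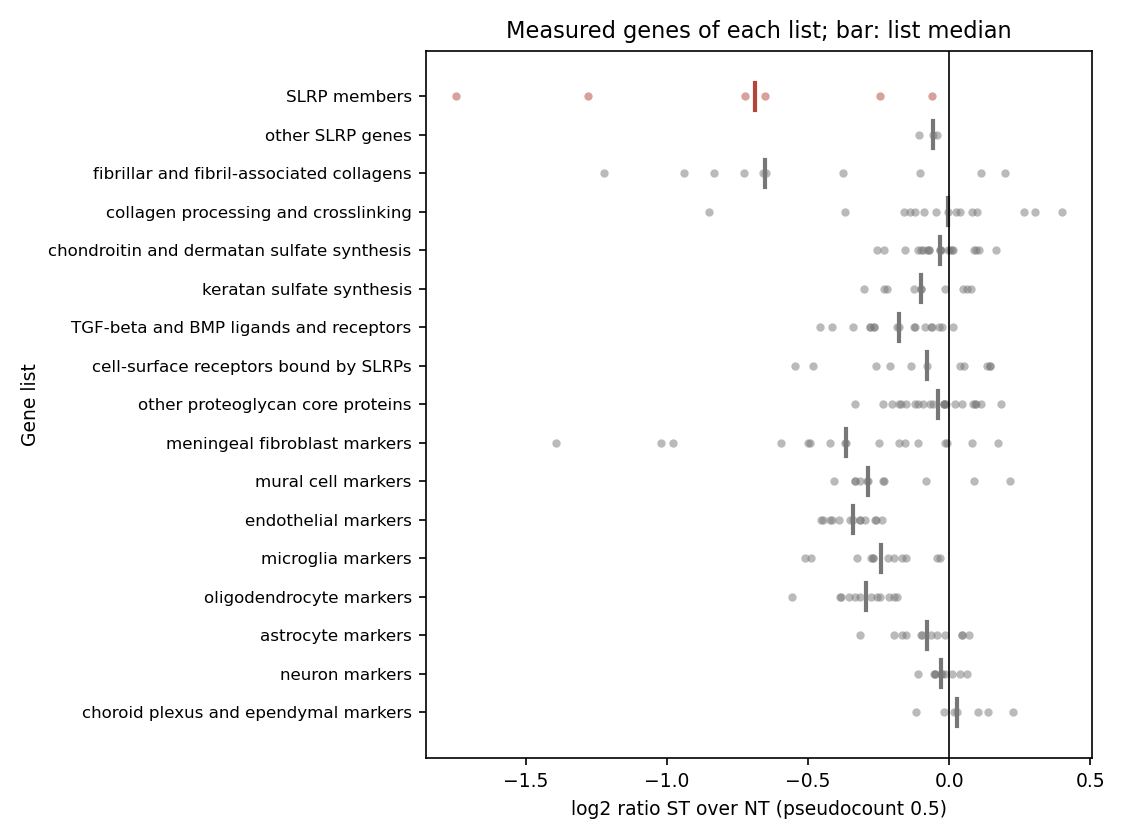
Each point is the log2 ratio ST over NT (horizontal axis) of a measured gene and each vertical bar a list's median, with one gene list per row and the SLRP members in red. The medians of SLRP members (-0.69) and of collagens (-0.65) lie lowest, the other pathway lists lie between -0.18 and -0.01, and those of meningeal, mural, endothelial, microglial and oligodendrocyte markers between -0.37 and -0.24.

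Many markers of the cells that could carry SLRP transcripts were lower in ST, and so were many markers of other cells. With 1 library per group, whether they vary together with the members could not be measured. Of 23 meningeal fibroblast markers, none was at 0 in either library. Of the 17 measured, 15 were below 0, as were 7295 of the 14343 measured genes, and the list median was -0.37. An interval below 1 was found for 9 and above 1 for 0, beside 10.2% and 7.79% of all measured genes. The same shares stand beside the lists that follow. The 2 measured markers above 0 were Gjb2 at 0.08 and Ranbp3l at 0.17, both named after their values were seen. Igfbp2 was at -1.39 (200 counts in NT, 60 in ST) and Aldh1a2, the retinoic acid enzyme of the meninges, at -1.02 (172 and 67), both chosen for naming after their values were seen. The 2 markers highest by RPKM were Gjb6, also an astrocyte gene, at -0.02 and Pdgfra, also a marker of oligodendrocyte precursors, at -0.18. Summed over the list, the level was 132 RPKM in NT and 116 in ST, of which Gjb6 alone held 71.0 and 70.8, and without Gjb6 it was 60.9 and 45.4. Of the mural markers 7 of 11 measured had an interval below 1 (summed level 83.1 RPKM in NT, 68.7 in ST), and of the endothelial ones 12 of 13 (104 and 82.4). Microglial markers summed to 187 and 162 RPKM (8 of 12 below 1), oligodendrocyte markers to 1290 and 1060 (12 of 12), astrocyte markers to 1508 and 1479 (8 of 12 below 1, 2 above), neuron markers to 978 and 974 (3 of 10 below 1, 1 above), and choroid plexus and ependymal markers to 214 in both libraries (1 of 7). In this last list, 2 genes under the count filter went opposite ways. Ttr had 48 counts in NT and 18 in ST (ratio 0.473, 0.259 to 0.829), and Folr1 24 and 32 (1.68, 0.961 to 2.99). No marker of these lists was at 0. Such calls also depend on depth, since the astrocyte genes Slc1a3 and Slc1a2 had intervals below 1 at ratios of only 0.971 and 0.956. The part of tissue make-up in the SLRP ratios was not tested, and in bulk tissue fewer cells of a type cannot be told apart from less RNA per cell.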

How the data were processed

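SCN RNA of 2 groups was measured with 1 library each. The build listed in the submitters' processing notes is mm9 and the tools are TopHat 1.2, CASAVA 1.8.2 and DESeq, without the step each was used for. The sources used here do not give the counter. Values the authors deposited are estimated counts (headed RC), RPKM and RPM values, and a comparison with a fold change as a ratio, its log2 and p-values, per the file headers. Estimated counts were rounded; 42.4% of genes in ST and 43.1% in NT were not whole (tolerance 1e-06) and are said to share reads, which makes them less certain. Another 3 columns were not used. Size factors were medians of ratios. Intervals are exact 95% Clopper-Pearson intervals of the share of both libraries' counts found in ST, rescaled by the size factors, and conditional exact intervals for pairs of genes (SciPy 1.17.1). Intervals cover counting error only, as reads were not tied to single molecules. Intervals of RPKM are exact Poisson intervals of the counts.

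Chromosome and strand codes were read by comparison with GENCODE vM1 on NCBIM37 (mm9), which held 23161 identifiers, 99.6% of them overlapping. Upstream sequences are RefSeq's, build GRCm38.p6. Calculations were tested on simulated data with Python 3.11.15. Members and lists were chosen with earlier results of these data known. Named genes are all members, the other SLRP genes, up to 4 genes per pathway list by size of the log2 ratio plus its highest by RPKM, 2 per marker list by RPKM, and neighbours of the loci; other names were added after their values were seen. Alternatives were scaling by total counts or TMM (edgeR 4.0.16), filters of 10 and 200, a pseudocount of 5, RPKM ratios, size rules of 1.5-fold and 3-fold, whole counts only, and leaving out Fmod.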

Additional observations from a re-analysis of the deposited data

How the results depend on the processing

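No paired analysis was possible because there is only 1 library per group, so leaving out a replicate was not possible either. The number of measured members at least 2-fold lower, 2 as reported, was 0 with a filter of 200 counts, which removes Fmod and Ogn, 4 with a size rule of 1.5-fold and 1 at 3-fold. The number with an interval below 1, 4 as reported, was 2 with a filter of 200. Without Fmod the log2 ratio of the summed counts was -0.23 in place of -0.33. Over all genes, the number at least 2-fold lower was 126 with a filter of 10 and 18 with a filter of 200, against 33. All 36 values of single members under other scalings, a pseudocount of 5 and RPKM ratios stayed within their counting intervals, as did all 47 list medians within the medians of their members' interval bounds. Medians near 0 changed sign in 6 cases. The median of SLRP receptors did so with a filter of 200 (0.05 against -0.08). That of collagen processing, at -0.0051, did so with that filter (0.023), total counts (0.0071) and RPKM ratios (0.0074). That of locus neighbours, at -0.0094, did so with total counts and RPKM ratios (0.0028 each). Scaling by total counts moved log2 ratios by 0.012, further than the medians of collagen processing and locus neighbours lay from 0. Why the filter and the RPKM ratios changed the sign was not tested. With a filter of 200 no other SLRP gene was left, and RPKM ratios give no interval count. Depth limits Lum, Aspn and Omd most, with 20, 16 and 0 rounded counts in ST.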
